A study of Rattus norvegicus with 4 samples.

Results

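The genes described here are 54 rat genes of the lysosome and of autophagy: cathepsins and other proteases, glycosidases and sulfatases, lipid hydrolases, membrane and delivery proteins, and the autophagy machinery with the transcription factor Tfeb. They were chosen by name, and a gene counted as measured where the array carried a probe set annotated to it alone. Of the 54, 50 had such a probe set, among 10411 genes with one on the array. Cln3 and Idua had none, and the probe sets listed for Map1lc3b and Gabarapl2 are shared with another gene and were not used. Of the 50, 47 lay above the limit for dim genes, the 40th percentile of all probe sets (an intensity of 81.1), and were tested among 7016 genes. Ctss, Ctsk and Manba lay under it.

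The cells were RTEC11, a epithelial cell line from the trachea of transgenic rats that carry the large T antigen of simian virus 40 in a temperature-sensitive form. The antigen inactivates p53 and the retinoblastoma proteins. All samples carried this antigen, and 1 line was used. Cells were kept for 3 days at the permissive 33 °C, where the antigen is active, or at the nonpermissive 39 °C, where it loses its activity, and total RNA from 2 samples per temperature was hybridised to 4 Affymetrix arrays. Temperature and loss of the antigen cannot be told apart, and the labels do not say whether the samples were separate cultures, and p-values then measure only how these samples spread, which may be technical.

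Lysosomes are acidic compartments in which hydrolases break down proteins, glycans and lipids taken up from outside or delivered from within. Most soluble hydrolases reach them through a mannose 6-phosphate tag that is added in the Golgi and read by receptors there. Autophagy brings cytoplasm and organelles to the lysosome in membranes that carry lipid-linked proteins of the LC3 and GABARAP families. TFEB and its relatives TFE3 and MITF activate many genes of both systems by binding E-box-like sequences near their start sites, and the kinase mTOR, which is active on the lysosomal surface, holds TFEB in the cytoplasm.

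The promoters of several of these genes hold the palindrome TCACGTGA, the core of the sequence that TFEB binds. RefSeq promoter windows on build GRCr8, from 250 bases before the start site to 50 after it, were at hand for 44 of the 54 genes. TCACGTGA was found in 6 of the 44 (13.6%), in Cln3, Ctsd, Gnptg, Atg3, Mcoln1 and Lamp1, against 0.867% of all 27457 windows and 1.83% of the 5969 windows of tested genes. The 7 letters TCACGTG, searched on both strands and contained in the longer word, were in 10 of 44 (22.7%), against 3.43% of all windows and 5.85% of those of tested genes. CACGTG alone was in 12 of 44 (27.3%), against 6.65% and 10.1%. TCACGTGA with G before and C after it was in 0 of 44, against 0.277% and 0.653%. A match is a description of these letters, not of binding, and the shares were not tested. The genes were chosen by name from systems that TFEB is known to activate. The higher shares of the shorter words are therefore no independent result. For each gene with TCACGTG and a measured level, a stretch with a match is shown 5′ to 3′ along the gene, because these genes moved in different directions. Each match of TCACGTG or CACGTGA in the stretch, alone or joined in TCACGTGA, is in capitals. The first 5 hold TCACGTGA and the other 3 hold TCACGTG or its reverse complement CACGTGA. Further matches lie outside the stretches. Counted from the start site, they begin at -184, -167 and -150 in Lamp1, at -157 in Ctsd and at -23 in Mcoln1.
Ctsd (chr1:206968822-206968862, minus strand): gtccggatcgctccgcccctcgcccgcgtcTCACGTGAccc
Gnptg (chr10:14761605-14761645, minus strand): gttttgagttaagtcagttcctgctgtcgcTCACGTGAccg
Atg3 (chr11:69159281-69159327, minus strand): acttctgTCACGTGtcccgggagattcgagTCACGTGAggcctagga
Lamp1 (chr16:83075092-83075159, minus strand): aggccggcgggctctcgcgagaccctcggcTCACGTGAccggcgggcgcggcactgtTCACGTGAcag
Mcoln1 (chr12:6358250-6358279, plus strand): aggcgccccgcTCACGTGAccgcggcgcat
Smpdl3a (chr20:37678870-37678936, plus strand): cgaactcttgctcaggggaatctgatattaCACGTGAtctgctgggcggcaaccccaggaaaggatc
Gaa (chr10:105028258-105028324, plus strand): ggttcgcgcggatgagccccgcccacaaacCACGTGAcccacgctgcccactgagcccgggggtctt
Glb1 (chr8:122963587-122963653, plus strand): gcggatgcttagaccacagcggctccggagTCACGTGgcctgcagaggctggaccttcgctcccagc
Of the 10 genes with TCACGTG, 4 rose at 39 °C (Ctsd, Gaa, Atg3 and Smpdl3a), 2 fell (Gnptg and Glb1), 2 did not pass the test (Mcoln1 and Lamp1) and 2 had no probe set of their own (Cln3 and Idua). The Ctsd, Gaa and Glb1 calls depended on the processing, as given below with their values.

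At 39 °C the lysosomal and autophagy genes moved in both directions. Of 47 tested, 16 rose and 12 fell, and 19 did not pass the test (limma, adjusted p under 0.05 over all genes tested). The share called was 59.6%, against 49.1% of all 7016 genes, and the shares higher and lower were 34.0% and 25.5%, against 23.1% and 26.1%. Among genes above the limit for dim genes at both temperatures rises reached 5.10-fold, and falls reached 1.91-fold, on the log2(intensity + 16) scale, which understates the change of dim genes. Smpdl3a, dim at 33 °C, passed the limit only through its 39 °C arrays and was also called higher. Of the 47 genes, 4 were called and changed at least 2-fold, all of them upward (Smpdl3a, Ctsc, Tpp1 and Hexa), a share of 8.51% against 10.9% of all genes. The arrays of the 2 temperatures did not overlap in 38 of the 47 genes (80.9%), against 75.1% of all genes tested. The median log2 change was 0.07 over the 47 genes and -0.04 over all genes. The plot of changes by role shows that each role held genes called in either direction.

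**Figure D1:**
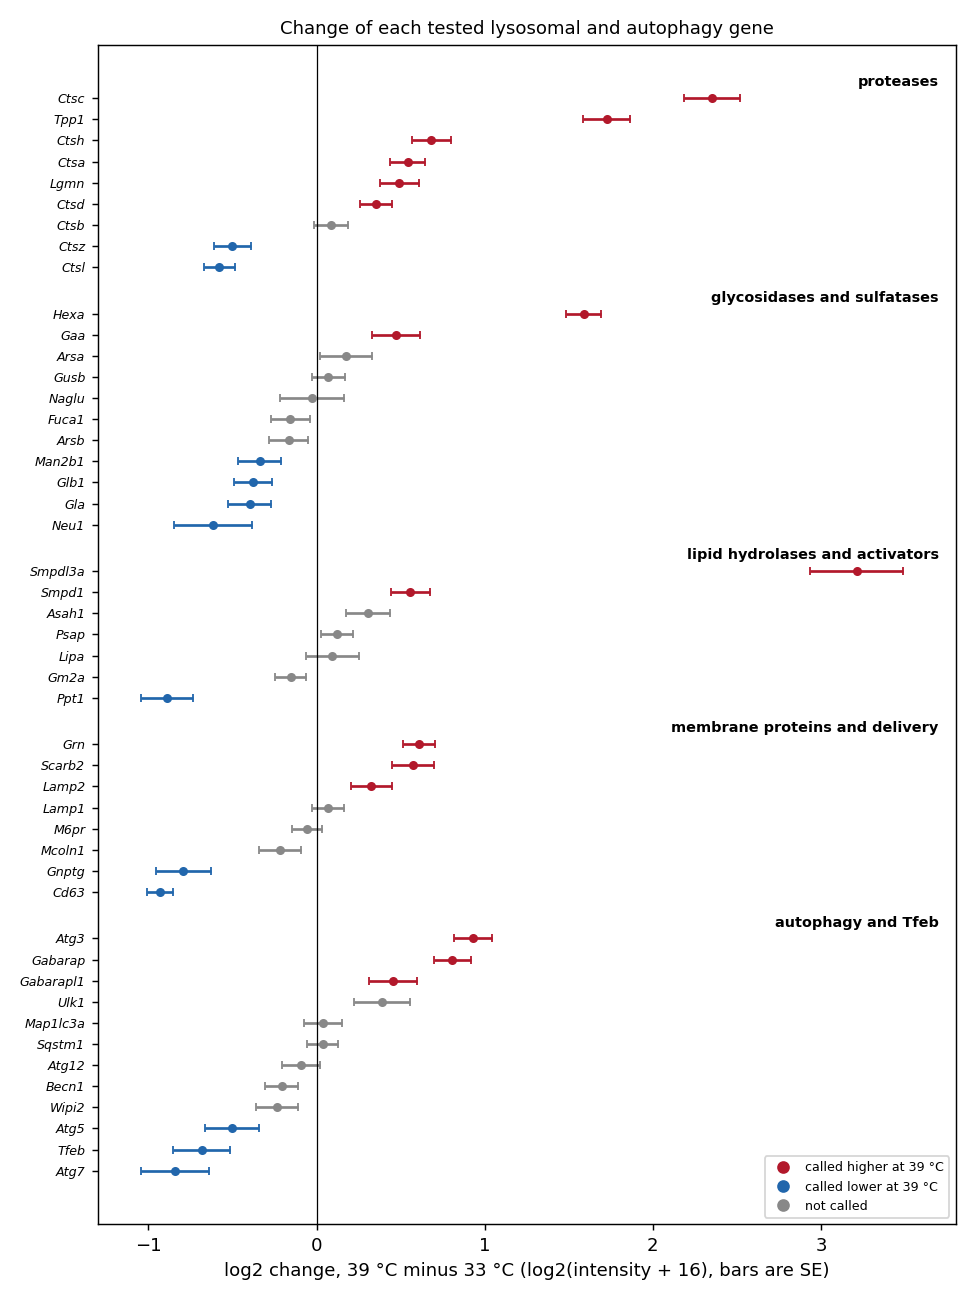
Log2 change at 39 °C relative to 33 °C (horizontal axis, points, with SE as bars, 2 arrays per temperature) for the 47 tested genes, grouped by role and coloured by call. Smpdl3a (3.21, dim at 33 °C), Ctsc (2.35), Tpp1 (1.72) and Hexa (1.59) lie to the right of 1, and Cd63 (-0.93), Ppt1 (-0.89) and Atg7 (-0.84) lie furthest to the left.

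How the arrays were scaled set the balance of rises and falls. After quantile normalization, 57.1% of the calls among these genes were rises. On the deposited scale 16 rose and 9 fell. Under median centring, where each array is set to its own median, 14 rose and 17 fell (45.2% rises). Under spike-in scaling, where each array is set to its poly-A control probe sets, 7 rose and 26 fell (21.2% rises). The mean log2 level of these 24 control probe sets was 6.63 and 6.69 at 33 °C and 6.99 and 7.09 at 39 °C. The limit for dim genes was 6.60, so this reference lay near it on average. Quantile normalization put the median of all genes tested at -0.04, the deposited scale at 0.02, median centring at -0.13 and spike-in scaling at -0.36 (log2 change). For the lysosomal and autophagy genes it was 0.07, 0.07, -0.08 and -0.31. Of the 28 called genes, 16 were called in the same direction under all 4 scalings: Ctsc, Tpp1, Ctsh, Hexa, Smpdl3a, Atg3 and Gabarap as higher, and Ctsz, Ctsl, Glb1, Ppt1, Gnptg, Cd63, Atg5, Tfeb and Atg7 as lower. Both centring on the median and scaling to spike-ins shift all changes downward from the deposited scale, so neither can turn a fall seen there. The next values are limited to genes whose main result is given in this text, and other genes of the further lists moved as much. Of the genes still called under spike-in scaling, values moved by over 1.5 times for Ctsh (to 0.36), Atg3 (0.58), Gabarap (0.37), Igf2r (0.47), Npc2 (0.36) and Rab7a (0.79), and downward for Ctsz (-0.86), Ctsl (-1.06), Glb1 (-0.70), Gla (-0.68), Man2b1 (-0.64), Cd63 (-1.40), Atg5 (-0.80), Mtor (-0.86) and Tfe3 (-0.69). The epithelial markers Krt19 (to 0.32), Cldn4 (0.42), Dsp (0.67), Krt7 (-0.88) and Krt18 (-0.83), described below, also moved by over 1.5 times.

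**Figure D2:**
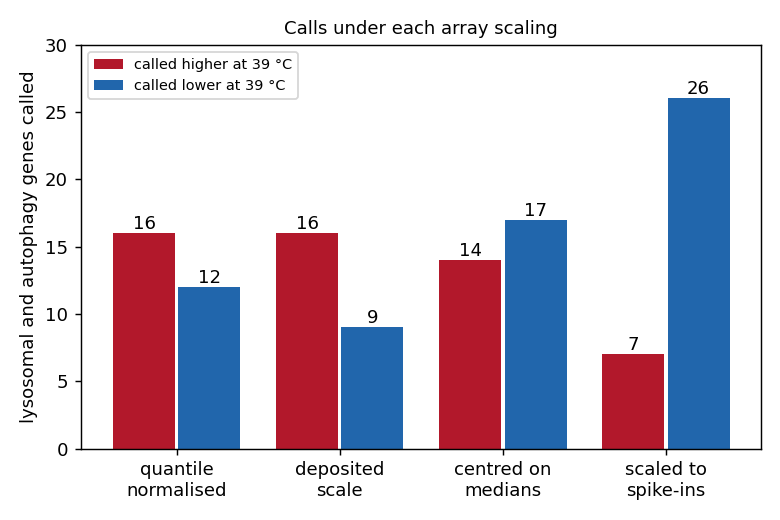
Number of the lysosomal and autophagy genes called higher (red) and lower (blue) at 39 °C under each way of scaling the 4 arrays. Rises go from 16 after quantile normalization to 7 under spike-in scaling, and falls from 12 to 26.

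Lysosomal proteases rose more often than they fell: of 9 tested, 6 rose, 2 fell and 1 did not pass, a share called of 88.9% (49.1% of all genes). Their median log2 change was 0.49. Under spike-in scaling 3 were higher and 3 lower. Ctsc encodes cathepsin C, the dipeptidyl peptidase that activates serine proteases of immune granules. Its intensity was 174.9 and 130.9 on the 33 °C arrays and 973 and 822.2 on the 39 °C arrays. The groups lay far apart, a 5.10-fold rise (log2 change 2.35 ± 0.17 (SE), adjusted p 1.1e-06). A second Ctsc probe set gave 177.6 and 173.2 against 684 and 677.3, a log2 change of 1.77. Tpp1, the tripeptidyl peptidase whose loss in humans causes a neuronal ceroid lipofuscinosis, read 186.4 and 176.1 at 33 °C and 700.1 and 662.3 at 39 °C. This was a 3.31-fold rise without overlap (log2 change 1.72 ± 0.14 (SE), adjusted p 2.71e-06). Ctsh, an aminopeptidase among the cathepsins, went from 555.7 and 514.9 to 888.8 and 919.3 (log2 change 0.68 ± 0.11 (SE), adjusted p 5.02e-04).

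Smaller rises were those of Ctsa, Lgmn and Ctsd. Ctsa, the carboxypeptidase that protects the sialidase Neu1 and the galactosidase Glb1 in a complex, read 1193.4 and 1181.4 at 33 °C and 1618.2 and 1861 at 39 °C (log2 change 0.54). Lgmn, the asparaginyl endopeptidase that processes other lysosomal proteases, changed by 0.49 on the log2 scale and was not called without 39 °C replicate 2 (0.33). The aspartic protease cathepsin D (Ctsd) had a log2 change of 0.35. All 3 calls were lost under spike-in scaling, where Ctsa was at 0.16, Lgmn at 0.11 and Ctsd at -0.07. The Ctsd call was lost with median centring as well (0.16).

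Of the cysteine cathepsins with broad endopeptidase or carboxypeptidase activity, Ctsl and Ctsz fell and Ctsb did not pass. Ctsl read 4040.5 and 3775 at 33 °C and 2301 and 2570 at 39 °C. The groups did not overlap, a 1.49-fold fall (log2 change -0.58 ± 0.09 (SE), adjusted p 3.64e-04). A second, dimmer Ctsl probe set was at -0.25 and did not pass (adjusted p 0.129). Ctsz went from 1114.4 and 1021.7 to 740.6 and 780.1 (log2 change -0.50 ± 0.11 (SE), adjusted p 0.00283). Ctsb read 7794.8 and 6248.5 against 6782.7 and 6831.4, with the 39 °C arrays between the 33 °C ones, and its log2 change of 0.09 had a 95% confidence interval from -0.14 to 0.31. Under spike-in scaling Ctsb was called lower (-0.42). Ctss and Ctsk, the cathepsins known for macrophages and osteoclasts, were dim, with intensities of 23.6 to 53.8 and 6.2 to 34.8.

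**Figure D3:**
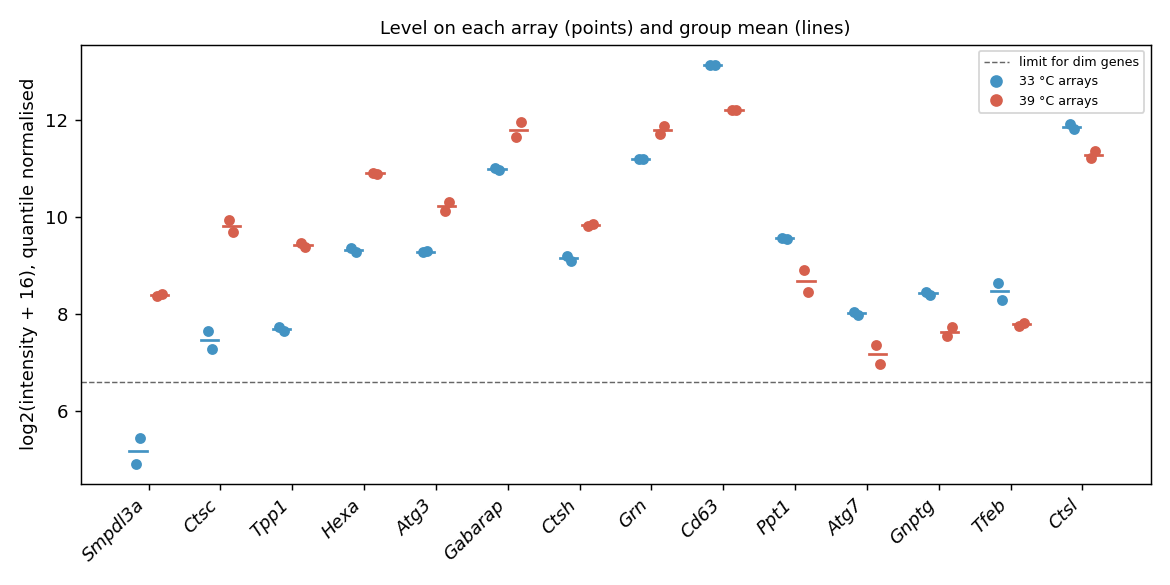
Level of 14 genes on each array (points, log2(intensity + 16) after quantile normalization) with the group means as lines, for 33 °C (blue) and 39 °C (red). Levels can be compared within a gene only. The 14 were chosen from the called genes, in none of which the 2 temperatures overlap. They also do not overlap in 75.1% of all genes tested. Smpdl3a at 33 °C lies below the dashed limit for dim genes.

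Among 11 tested glycosidases and sulfatases 2 rose, 4 fell and 5 did not pass (54.5% called, near the 49.1% of all genes, median log2 change -0.15). The falls were small. On the deposited scale 1 was called lower, and under spike-in scaling 1 was higher and 7 lower. Hexa, which encodes the subunit that degrades GM2 ganglioside and is lost in Tay-Sachs disease, read 624.3 and 589.5 at 33 °C and 1892.8 and 1881.9 at 39 °C. Replicates lay close together and the groups far apart, a 3.01-fold rise (log2 change 1.59 ± 0.10 (SE), adjusted p 6.24e-07). Gaa, the acid glucosidase of lysosomal glycogen, went from 325.8 and 357.8 to 560.3 and 471 (log2 change 0.47). The Gaa call was lost without 33 °C replicate 1 (0.41), without 39 °C replicate 1 (0.34) and under spike-in scaling (0.19). Manba, a beta-mannosidase, was dim and not tested, with 12.4 and 15.5 at 33 °C and 55.1 and 75.7 at 39 °C.

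Glb1, Neu1, Gla and Man2b1 fell. Glb1 is the lysosomal beta-galactosidase whose activity is stained as a marker of senescent cells. It read 740.3 and 753.6 at 33 °C and 581.1 and 609.4 at 39 °C, a log2 change of -0.38 ± 0.11 (SE, adjusted p 0.0174). The Glb1 call was lost without 33 °C replicate 2 (-0.36) or either 39 °C array (-0.35 without replicate 1 and -0.41 without replicate 2). Neu1, the sialidase that works in a complex with Ctsa and Glb1, went from 213.5 and 156.7 to 150.1 and 106.1 (log2 change -0.62 ± 0.23 (SE), adjusted p 0.0446). The Neu1 call was lost without 33 °C replicate 1 (-0.41), without 39 °C replicate 2 (-0.43), on the deposited scale (-0.48), with probe sets averaged (-0.36) and without a limit for dim genes (-0.62). Gla, the alpha-galactosidase deficient in Fabry disease, was at -0.40 and the alpha-mannosidase Man2b1 at -0.34. The Gla call was lost without 33 °C replicate 2 (-0.36), without 39 °C replicate 1 (-0.35) or 2 (-0.45) and on the deposited scale (-0.30). The Man2b1 call, just past the threshold (adjusted p 0.0485), was lost without 33 °C replicate 1 (-0.24), without 39 °C replicate 1 (-0.37) or 2 (-0.30), on the deposited scale (-0.26), with probe sets averaged (-0.22), and without a limit for dim genes, without the intensity trend or with a robust prior (-0.34 in each). Without 39 °C replicate 2 none of these 4 was called, and at most 3 glycosidases and sulfatases were called lower when any single array was left out. The remaining members, Arsa, Gusb, Naglu, Fuca1 and Arsb, had log2 changes from -0.17 (Arsb) to 0.18 (Arsa).

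Of 7 lipid hydrolases and their activators 2 rose, 1 fell and 4 did not pass (42.9% called, near the 49.1% of all genes, median log2 change 0.12). Smpdl3a, a secreted and lysosomal phosphodiesterase related to acid sphingomyelinase, read 12.6 and 26 at 33 °C and 326.7 and 334.9 at 39 °C. It was dim on both 33 °C arrays and above the limit on both 39 °C arrays. Its mean at 39 °C was at least 3.45-fold above the limit for dim genes. The mean over the 4 arrays passed that limit only through the 39 °C arrays. Entry of Smpdl3a to the test thus depended on its level at 39 °C, and its call is not independent of that filter. The fitted fold depends on the number added to each intensity, and was 15.5 with 1 added and 4.53 with 64 added, so it is not ranked with the others. Smpd1, acid sphingomyelinase itself, which makes ceramide, went from 1409.5 and 1122.9 to 1814.4 and 1914.4 (log2 change 0.56 ± 0.11 (SE), adjusted p 0.00197), and was not called under spike-in scaling (0.18).

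Ppt1, the thioesterase that removes palmitate from proteins, read 734.9 and 722.8 at 33 °C and 475.3 and 345.4 at 39 °C. It fell 1.85-fold (log2 change -0.89 ± 0.15 (SE), adjusted p 6.16e-04). Ppt1 and Tpp1 are both genes of neuronal ceroid lipofuscinosis in humans, and they moved in opposite directions. Asah1, the acid ceramidase, went from 1187.5 and 1018.5 to 1533.3 and 1215 (log2 change 0.30) and did not pass (adjusted p 0.0723). Its second probe set, with 319.3 and 345.4 at 33 °C and 525.5 and 823.2 at 39 °C, was called higher (0.87, adjusted p 0.00216 over all probe sets tested). Psap, the precursor of the saposins, was at 0.12, Gm2a, the activator that presents GM2 ganglioside for degradation, at -0.15, and the acid lipase Lipa at 0.09, and none of them passed.

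Among 8 tested membrane, delivery and accessory proteins 3 rose, 2 fell and 3 did not pass (62.5% called, against 49.1% of all genes, median log2 change 0.01). Under spike-in scaling none was called higher and 5 were lower. Cd63, a tetraspanin of late endosomes, lysosomes and exosomes, read 9201.8 and 9324.9 at 33 °C and 4544.8 and 4566.6 at 39 °C. Its replicates were nearly equal, and it fell 1.91-fold, the largest fall among the 47 genes (log2 change -0.93 ± 0.08 (SE), adjusted p 3.7e-06). Gnptg, the gamma subunit of the phosphotransferase that starts the mannose 6-phosphate tag, went from 319.6 and 311.3 to 181.9 and 206.1 (log2 change -0.79 ± 0.16 (SE), adjusted p 0.00201). M6pr, the smaller of the mannose 6-phosphate receptors, read 2399.4 and 2392.9 against 2205.1 and 2232, and its log2 change of -0.06 had a 95% confidence interval from -0.25 to 0.14. It was called lower with median centring and under spike-in scaling (-0.49).

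Grn, the precursor of the granulins found in lysosomes, went from 2360.8 and 2373.9 to 3255.8 and 3621.9 (log2 change 0.61 ± 0.09 (SE), adjusted p 2.62e-04). Scarb2, the membrane protein LIMP-2 that carries glucocerebrosidase to lysosomes, went from 398.4 and 426.5 to 686.1 and 633 (log2 change 0.57 ± 0.13 (SE), adjusted p 0.00282). Neither was called under spike-in scaling (0.15 for Grn and 0.28 for Scarb2), and Grn was at 0.38 with median centring.

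Lamp1 and Lamp2 are the most abundant glycoproteins of the lysosomal membrane. Lamp1 read 2295.4 and 2069.2 at 33 °C and 2240.6 and 2208.9 at 39 °C. The groups overlapped, and the log2 change of 0.07 had a 95% confidence interval from -0.14 to 0.28. Lamp2 was represented by its brighter probe set, which read 2880.7 and 3305.5 against 3185.3 and 4112.7 (log2 change 0.33, adjusted p 0.0473). That call was lost without 33 °C replicate 1 (0.23), without 39 °C replicate 2 (0.13), on the deposited scale (0.23), without a limit for dim genes, without the intensity trend and with a robust prior (0.33 in each), and the change was 0.52 without 39 °C replicate 1, -0.15 under spike-in scaling and 0.08 with median centring. The second Lamp2 probe set read 594.8 and 814.2 at 33 °C and 2126.3 and 2047.6 at 39 °C, a log2 change of 1.56 ± 0.14 (SE, adjusted p 3.76e-06 over all probe sets tested). Lamp2 is known to be spliced to isoforms with different ends. Which of them each probe set detects was not examined here. Mcoln1, the calcium channel of the lysosome, was at -0.22 and did not pass.

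**Figure D4:**
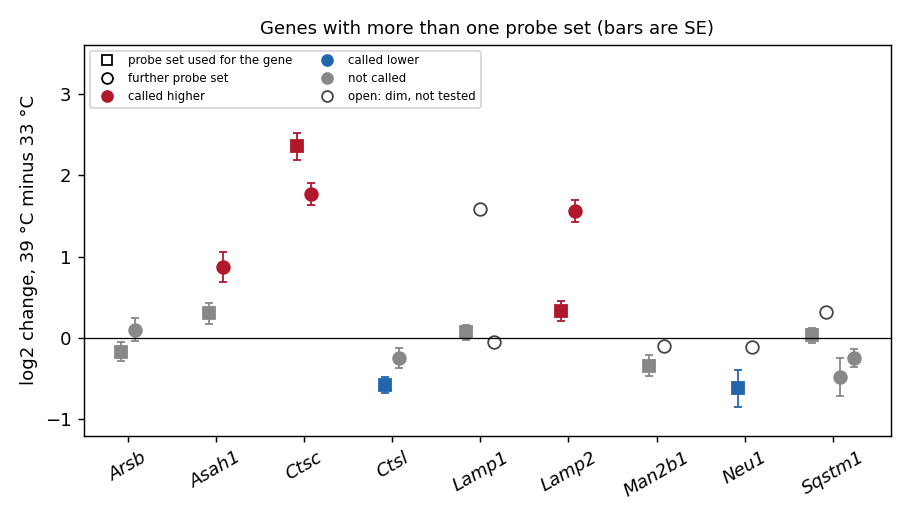
Log2 change at 39 °C relative to 33 °C (vertical axis, SE as bars) for every probe set of the 9 genes that have more than 1, with squares for the probe set that represents the gene and circles for the others. The probe sets of Lamp2 lie at 0.33 and 1.56, those of Asah1 at 0.30 and 0.87 and those of Ctsc at 2.35 and 1.77. Open circles were too dim to test.

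Of the 9 genes with further probe sets, 12 further ones in all, 5 were dim and 7 tested. Of the 7, 4 had the sign of the probe set used, and in no gene were 2 probe sets called in opposite directions. Those with another sign belonged to Arsb and Sqstm1, and none of the probe sets of these 2 genes was called.

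Of 12 tested autophagy genes 3 rose, 3 fell and 6 did not pass (median log2 change -0.03). The share called was 50%, near the 49.1% of all genes. Under spike-in scaling 2 were higher and 8 lower. Apart from Tfeb, the called genes belong to the machinery that attaches lipid to LC3 and GABARAP proteins, and they moved in both directions. Atg3, the E2-like enzyme of that reaction, read 592.7 and 597.3 at 33 °C and 1109.6 and 1246.1 at 39 °C. It rose 1.91-fold (log2 change 0.93 ± 0.11 (SE), adjusted p 5.16e-05). Gabarap, one of the proteins that receive the lipid, went from 2070.9 and 2010.6 to 3098.3 and 3805 (log2 change 0.81 ± 0.11 (SE), adjusted p 1.11e-04). Its relative Gabarapl1 went from 264 and 284.4 to 428.2 and 398.7 (log2 change 0.45). The Gabarapl1 call was lost without 33 °C replicate 1 (0.41), without 39 °C replicate 1 (0.40) or 2 (0.50) and under spike-in scaling (0.18).

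Atg7, the E1-like enzyme that acts before Atg3, read 234.5 and 224.8 at 33 °C and 159.7 and 112.4 at 39 °C, without overlap. It fell 1.79-fold (log2 change -0.84 ± 0.20 (SE), adjusted p 0.00515). Atg5, which forms with Atg12 the conjugate that acts as the E3, went from 630.1 and 470 to 442.9 and 368 (log2 change -0.50 ± 0.16 (SE), adjusted p 0.0222). The Atg5 call was lost without 33 °C replicate 1 (-0.31), without 39 °C replicate 2 (-0.37), and without a limit for dim genes or the intensity trend (-0.50 in each). Atg12 was at -0.09 and did not pass. The cargo receptor Sqstm1 (p62) read 2972 and 2820.2 against 2675.3 and 2923.8, with overlap, and its log2 change of 0.04 had a 95% confidence interval from -0.16 to 0.24. Map1lc3a was at 0.04, Becn1, a subunit of the lipid kinase complex that starts the membrane, at -0.21, Wipi2, which reads that lipid, at -0.24 and the initiating kinase Ulk1 at 0.39, and none of them passed. Ulk1 was called higher on the deposited scale (0.53) and without the intensity trend. Under spike-in scaling Becn1 (-0.61), Wipi2 (-0.55), Atg12 (-0.44), Sqstm1 (-0.43) and Map1lc3a (-0.31) were called lower, and Becn1 with median centring as well.

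Tfeb itself fell. It read 366.8 and 286.4 at 33 °C and 209.4 and 220.9 at 39 °C, without overlap, a 1.61-fold fall (log2 change -0.68 ± 0.17 (SE), adjusted p 0.00637). The Tfeb call was lost without 33 °C replicate 1 (-0.51, adjusted p 0.0561). Of its relatives, Tfe3 was at -0.34 and passed (adjusted p 0.0204). The Tfe3 call was lost without 33 °C replicate 1 (-0.33) or either 39 °C array (-0.38 without replicate 1 and -0.31 without replicate 2). It was also lost with probe sets averaged. Mitf was dim. These are transcript levels, while TFEB is known to be regulated largely by its place in the cell, which was not measured here.

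Other genes of the same systems, listed by name, rose more often than they fell. Of 92 tested, 33 rose, 10 fell and 49 did not pass (46.7% called, against 49.1% of all genes), with shares higher and lower of 35.9% and 10.9%, against 23.1% and 26.1% of all genes, and a median log2 change of 0.24. Among 40 further lysosomal and delivery genes 16 rose and 6 fell, among 32 further autophagy genes 10 rose and 1 fell, and among 20 genes of mTOR signalling 7 rose and 3 fell. Under spike-in scaling these counts were 11 and 13, 6 and 7, and 4 and 7. The largest rises were those of Gga2, Ddit4, Rab7a and Sort1. Gga2, an adaptor that packs mannose 6-phosphate receptors into vesicles at the Golgi, rose by 1.74 ± 0.11 (SE) on the log2 scale, and Sort1, the sorting receptor sortilin, by 1.15 ± 0.15. Rab7a, the GTPase of late endosomes, rose by 1.21 ± 0.10 and Ddit4, which restrains mTOR complex 1 under stress, by 1.33 ± 0.11 (SE). Igf2r, the larger mannose 6-phosphate receptor, went from log2 intensities of 10.85 and 10.82 to 11.80 and 11.69, a rise of 0.91 ± 0.09 (SE, adjusted p 1.28e-05). Npc2, a cholesterol-binding protein of the lysosome, rose by 0.83 and the protease inhibitor cystatin C (Cst3) by 0.41. The Cst3 call was lost without 39 °C replicate 1 (0.39) and under spike-in scaling (0.06).

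The largest falls in these lists were those of Mlst8 (-0.96), a subunit of both mTOR complexes, Akt1s1 (-0.83), an inhibitor subunit of complex 1, Galc (-0.80), the galactosylceramidase, and Tmem192 (-0.76), a lysosomal membrane protein. Mtor itself went from log2 intensities of 9.38 and 9.28 to 8.77 and 8.75, a fall of 0.56 ± 0.12 (SE) with an adjusted p of 0.00288. Gnptab and Npc1, also on these lists, were not analysed here.

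The labelled cell type was checked against its markers. Of 13 epithelial markers 11 lay above the limit for dim genes. The 13 together had summed intensities of 76061 and 79512 at 33 °C and 86608 and 86126 at 39 °C. Markers of basal cells were mixed. Krt5 and Tp63 were dim, while Krt14 read 12515.9 and 12845.6 at 33 °C and 11449.4 and 11668.6 at 39 °C. Krt15 read 50.8 and 100.5 at 33 °C and 143.9 and 124.3 at 39 °C. Neither Krt14 nor Krt15 was called. Of the 11, 8 were called (72.7%, against 49.1% of all genes), 6 higher and 2 lower. The higher ones were Elf3 (log2 change 1.70), Dsp (1.13), Cldn4 (0.87), Krt19 (0.77), Epcam (0.53) and Krt8 (0.23). The lower ones were Krt7 (-0.45) and Krt18 (-0.36). Apart from Epcam and Krt8, these genes kept their calls under all 4 scalings. Epcam did not pass under spike-in scaling (0.07). Among the 4 scalings, Krt8 was called higher only after quantile normalization, and spike-in scaling put it at -0.21. Markers of the line's own cell type thus also differed between the temperatures, and their part in the changes of the lysosomal and autophagy genes was not tested. Macrophages are rich in lysosomal hydrolases. Of 12 macrophage markers with a probe set 10 were dim, Ptprc, Lyz2 and Tyrobp among them, and only Cd14 (log2 change -0.27) and Csf1r (-0.06) lay above the limit, neither called. The summed intensities of all 12 were 1190.6 and 1152.4 at 33 °C and 1063 and 1082 at 39 °C. Of 8 fibroblast markers 7 were dim. Col3a1, dim at 33 °C, passed the limit only through its 39 °C arrays. It was called higher, and at 39 °C was at least 2.26-fold above the limit. The 8 together had sums of 223 and 251.8 at 33 °C and 433.8 and 355.7 at 39 °C. No marker was listed at 0. Fewer cells of a type and less RNA per cell cannot be told apart in these bulk samples, and the part of the fibroblast markers in the changes above was not tested.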

How the data were processed

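Per the labels' protocols, DNase-treated total RNA was made into cDNA and biotin-labelled cRNA, hybridised to 1 Affymetrix array per sample and stained. The authors deposited linear intensities for 15923 probe sets. Their mean is 500.1 to 500.2 on each array with 2% trimmed at each end, so the authors' intensities had been scaled. The sources used here do not name the software that summarised probes, and no detection calls were at hand. The number of arrays limits the precision.

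Intensities were taken as log2(intensity + 16). Array medians differed by 0.175, so the arrays were quantile normalized without the 57 control probe sets. Gene symbols came from GEO's platform annotation, of which 12754 were checked by Entrez identifier in RefSeq (GRCr8) and 0 changed. Of 15866 others, 12783 had 1 symbol and 312 several. A gene was represented by its brightest probe set (_x_at only where there was no other). Dim genes (3395) were left out. Temperatures were compared with limma 3.58.1 in R 4.3.3 (lmFit, eBayes with trend, on 2 residual degrees of freedom per gene and a median prior of 9.23), with Benjamini-Hochberg adjustment over 7016 genes. The fit was tested on simulated data. Replicates correlated at 0.978 (33 °C) and 0.981 (39 °C), against 0.951 to 0.953 between temperatures, and 0.207% and 0.220% of their values were identical. All genes chosen by name are accounted for. Of the further lists, the 4 largest called rises and falls and the reported members of a fixed set of 9 genes are named. The genes and lists were chosen with earlier results of these data known, so no list was tested as a set. Alternatives were other scalings, added numbers, dim limits, probe set choices, fit settings, a replicate block and leaving out each array. Figures used matplotlib 3.10.9 in Python 3.11.15.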

Additional observations from a re-analysis of the deposited data

How the results depend on the processing

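Over 745 pairs of a tested lysosomal or autophagy gene and an alternative, 651 kept the direction and the side of the threshold, 20 changed sign without a call before or after (11 genes), 46 lost a call, 20 gained one and 8 changed sign with a call before or after. Of the 28 called genes, 13 were called under every alternative that gave a value: Ctsc, Tpp1, Ctsh, Ctsz, Ctsl, Hexa, Smpdl3a, Ppt1, Gnptg, Cd63, Atg3, Gabarap and Atg7. The sign changes with a call before or after came under spike-in scaling, which lowers every change alike from the deposited scale: Ctsb -0.42, Ctsd -0.074, Gusb -0.31, Lamp1 -0.35, Lamp2 -0.15, Map1lc3a -0.31, Psap -0.28 and Sqstm1 -0.43, and outside these genes Cdh1 -0.39, Krt8 -0.21, Lamtor2 -0.42 and Vmp1 -0.34. Under that scaling 800 genes were called higher and 3359 lower (median -0.36), with 7 and 26 of the lysosomal and autophagy genes (median -0.31), 3 proteases higher, 1 glycosidase or sulfatase higher and 7 lower, 1 lipid gene higher and 3 lower, 0 membrane or delivery genes higher and 5 lower, 8 autophagy genes lower, 13 further lysosomal genes lower, 6 further autophagy genes higher and 7 lower, and 4 mTOR genes higher and 7 lower. Under median centring the median of the tested lysosomal and autophagy genes was -0.082, with 2 lipid genes and 2 further autophagy genes lower. On the deposited scale 1 glycosidase or sulfatase was lower. Without a limit for dim genes 2 glycosidases or sulfatases and 0 further autophagy genes were lower. With the limit at the 60th percentile, which tests fewer genes, 1 lipid gene was higher, 1 membrane or delivery gene and 1 autophagy gene lower and 2 mTOR genes higher. When the probe sets of a gene were averaged 2 glycosidases or sulfatases were lower, and with each probe set on its own 3 further autophagy probe sets. Apart from the scalings, whose shift is given, the cause of these moves was not tested. Leaving out each array in turn gave 21 to 27 called genes, 14 to 16 higher and 7 to 11 lower, the 7 without 39 °C replicate 2. The ranges were 1 to 2 glycosidases or sulfatases higher and 0 to 3 lower, 1 to 3 autophagy genes lower, 3 to 5 further lysosomal genes lower, 0 to 1 further autophagy genes lower and 4 to 7 mTOR genes higher. In such a fit the lone array of a temperature is assumed to vary like the other pair. The labels number the samples 1 and 2 at each temperature, but deviations of same-numbered arrays correlated at -0.0064, so the numbers are not taken as pairs. With the replicate block 17 of these genes were higher and 12 lower, all 28 calls among them, and 2 further autophagy genes were lower in place of 1. Signal over background limits Ctss, Ctsk, Manba and the level of Smpdl3a at 33 °C.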
